A study of Macaca mulatta with 24 samples.

Results

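Transporters of transmitters, amino acids and chloride were examined in 4 areas of rhesus monkey neocortex. The members were taken by symbol. They are the probe sets that carry exactly 1 gene symbol beginning with SLC1A, SLC6A, SLC12A, SLC17A, SLC18A, SLC32A or SLC38A. The rule itself uses no measured value, but the families were chosen with earlier results of these data known. The rule found 69 probe sets of 45 genes among 52865 probe sets on the array, in 6 of the 7 families, with 0 for SLC32A. Of these, 44 probe sets of 31 genes were bright enough to be tested, and 25 were not. The genes SLC1A1, SLC12A2, SLC17A6, SLC32A1 and SLC38A2 have 0 probe sets under a single symbol here and are not analysed here, so the vesicular GABA transporter and the chloride importer of immature neurons are outside the values below.

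The areas were prefrontal area 46 (A46), ventral and dorsal premotor cortex (PMv and PMd), and the part of primary motor cortex (M1) that serves the forelimb. Every area was dissected from the left and right hemispheres of the same 3 adolescent animals, which gave 24 one-colour arrays, 6 per area. Animals 1 and 2 were males and animal 3 was a female, all aged 2.6 to 2.7 years, raised in group cages and given no experimental treatment. All were killed with pentobarbital and perfused with cold saline that contained heparin, and the areas were cut out by sulcal landmarks, so each piece holds all cortical layers and cell types. The comparisons ask which transporter transcripts differ between the prefrontal and motor areas, between the motor areas, and between hemispheres.

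Released glutamate is cleared mainly by the sodium-coupled transporters of the SLC1A family on astrocytes, converted to glutamine, exported by SLC38A transporters and taken up again by neurons. SLC17A and SLC18A proteins load transmitter into vesicles, and SLC6A proteins retrieve GABA, glycine, monoamines, proline, creatine and taurine with sodium and chloride. The SLC12A cotransporters set the chloride gradient on which inhibition through GABA receptors depends. Values are given as array intensity on a linear scale for single arrays and as log2 differences for contrasts. The 2 hemispheres of an animal were averaged first, so the mean of an area rests on 3 animals. A difference was called where limma's adjusted p was under 0.05, and intervals are 95% intervals.

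Median intensity per array was 47.88 to 51.62, and any pair of arrays correlated at 0.978 to 0.997 on the log2 scale. The left PMv arrays of animals 1 and 2 correlated least with the others, with medians of 0.984 and 0.988, and counts of calls without them are given for the area contrasts. As a check of the tissue, 5 markers of cortical excitatory neurons were measured, and the log2 intensity of NRGN (neurogranin, a postsynaptic protein of these neurons) averaged 13.0 ± 0.0536 in A46 and 12.85 ± 0.0946 in M1 (SD, n = 3). Of the 5, TBR1 was higher in M1, at 0.20 (adjusted p = 0.0391), CAMK2A and NEUROD6 were lower, at -0.53 (adjusted p = 0.023) and -0.31 (adjusted p = 0.028), and NRGN was not called. Summed over those 5 markers, intensity was 13540 to 14140 in the animals' A46 and 12610 to 13340 in their M1. Each such sum, here and below, is weighted towards its brightest probe sets, in this one NRGN, and is no measure of cell number. Oligodendrocyte markers differed most between the areas: 5 of 6 tested were higher in M1, against 7.49% of all tested probe sets. Their median log2 difference was 1.27, and their summed intensity was 9626 to 12610 in A46 and 18970 to 23930 in M1. Fewer cells of a type and less RNA per cell cannot be told apart in such bulk pieces, and the part of cell composition in the transporter differences was not tested. RNA quality was read from actin as the 3' end over the 5' end on the log2 scale, which came to 1.08 ± 0.11 for A46, 1.10 ± 0.14 for PMv, 0.99 ± 0.15 for PMd and 0.94 ± 0.05 for M1 (SD, n = 3), and its part was likewise not tested.

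SLC1A4, the neutral amino acid transporter ASCT1 that exchanges serine, alanine, cysteine and threonine, was lower in M1 than in A46 by 2 of its 4 probe sets. The brightest of them (MmugDNA.22199.1.S1_at) lay between 592.4 and 695.3 on the 6 A46 arrays, with a median of 637. PMv arrays read 503.5 to 628.6 with a median of 565, and PMd arrays read 555.2 to 604.3 with a median of 584. On the M1 arrays it read 500.6 to 548.1, with a median of 509. All 6 M1 arrays were below all 6 A46 arrays, while both premotor areas overlapped A46. The log2 difference, M1 minus A46, was -0.31 (SE 0.07, adjusted p = 0.0084), and it was negative in 3 of 3 animals.

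The probe set of SLC1A4 with the widest spread (MmugDNA.22198.1.S1_at), which had the largest M1 minus A46 difference of the 44, read 175 to 205.6 in A46, with a median of 188.4. In PMv it read 118.7 to 190.5 (median 130.25), and in PMd 117 to 179.4 (median 153.55). In M1 it read 104.5 to 161.7 (median 126.65). M1 arrays again lay below every A46 array, with a log2 difference of -0.52 (SE 0.11, interval -0.76 to -0.28, adjusted p = 0.00788). By animal the difference was -0.77, -0.62 and -0.16, so the female, animal 3, showed the smallest one. In the premotor areas the arrays of animal 3 read 173 to 190.5 and those of animals 1 and 2 read 117 to 159.8, with no overlap between them. Premotor minus A46 was -0.36 (SE 0.10, adjusted p = 0.0553), with -0.61, -0.49 and 0.01 in the 3 animals, and was not called.

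The other 2 probe sets of SLC1A4 were also lower in M1 in every animal without passing the threshold. One of them (MmugDNA.22294.1.S1_at) read 159.4 to 188 in A46 and 127.6 to 157.2 in M1, with no overlap, at a log2 difference of -0.27 (adjusted p = 0.0558). The second (MmugDNA.22198.1.S1_s_at) read 201.2 to 309.7 in A46 and 189.4 to 223.9 in M1, which overlap, at -0.35 (adjusted p = 0.0554). The 4 probe sets share a target gene and are not independent. Both calls were lost without animal 1 or animal 2 and kept without animal 3. Without animal 1 the adjusted p of the brightest and of the widest-spread probe set was 0.0913 and 0.0968, without animal 2 it was 0.269 and 0.245, and without animal 3 it was 0.00143 and 4.95e-05. Animal 3 had the smallest difference in both, so leaving it out enlarges them by construction. Left hemispheres alone gave 0.0723 and 0.0638, scaling to a common median only took the brightest to 0.0547, and a fit without the animal term took the widest-spread one to 0.118.

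**Figure D1:**
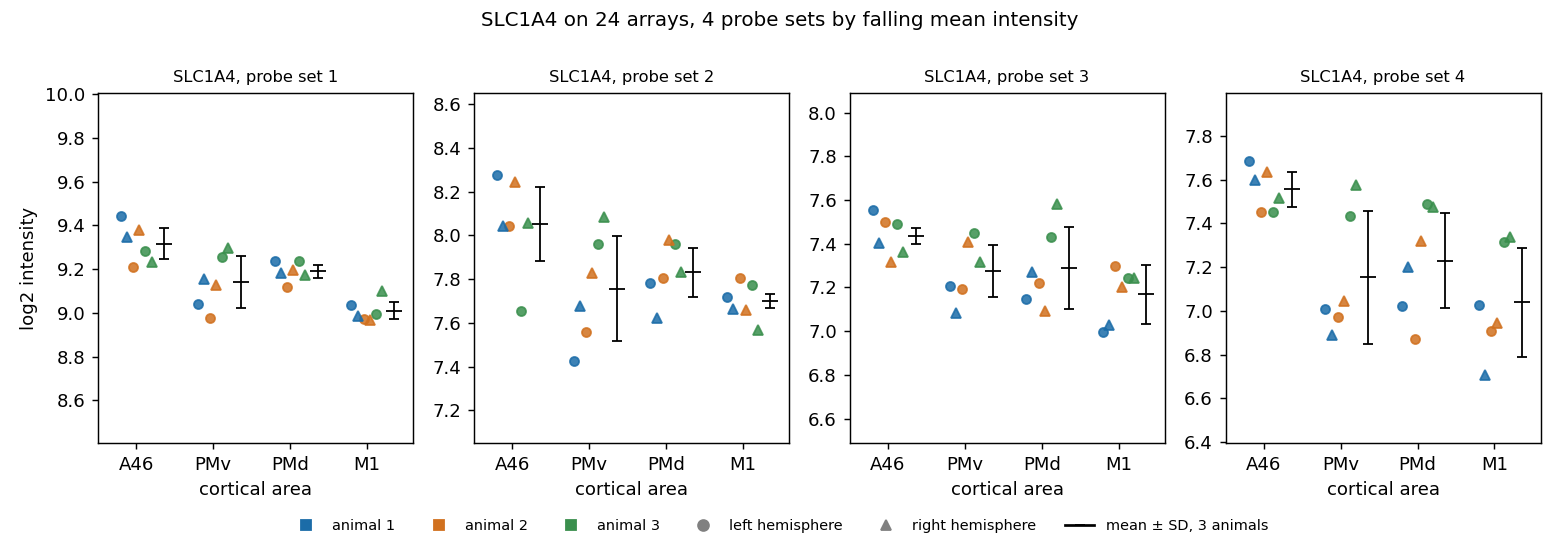
Log2 intensity of SLC1A4 (vertical axis) on the 24 arrays in 4 cortical areas (horizontal axis), in 1 panel per probe set ordered from the brightest; colours mark animals, circles and triangles mark left and right hemispheres, and black bars show mean ± SD over 3 animals. In 3 of the 4 panels every M1 point lies below every A46 point.

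Across the tested transporters, M1 minus A46 was called for 4 of 44 probe sets, which is 9.09%, against 12.9% of all 26383 tested probe sets (7.49% higher and 5.36% lower in M1). They were 2 of the 4 SLC1A4 probe sets and 1 of SLC6A17, which were lower in M1, and SLC38A3, which was higher. At an unadjusted p under 0.05 there were 13, or 29.5%, against 25.9% of all. The share called was thus not above that of the array as a whole. The direction was uneven: 35 of 44 differences were below 0 (79.5%, against 53.1% of all tested), and their median was -0.10, against -0.01 for all tested.

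By family, 8 of 11 SLC1A probe sets, 12 of 14 in SLC6A, 8 of 11 in SLC38A, 4 of 4 in SLC12A, 2 of 2 in SLC17A and 1 of 2 in SLC18A were below 0. Log2 differences ranged from -0.52 to 0.30 over the 44, and the widest interval reached 0.28 to either side of its estimate. These intervals are not adjusted for the number of tests, so even larger differences could have been missed for the least precise members. Among other members, SLC6A9 at 0.28 (adjusted p = 0.0526) and 1 SLC1A4 probe set at -0.35 (adjusted p = 0.0554) were not called. In the order of the 4 area means, A46 was the highest for 24 of 44 probe sets (54.5%, against 36.9% of all tested) and M1 the lowest for 23 (52.3%, against 27%). The 6 M1 arrays and the 6 A46 arrays did not overlap for 5 of 44 (11.4%, against 8.68% of all tested): 3 of SLC1A4 and SLC1A6 with M1 below, and SLC38A3 with M1 above. A fit without the animal term called 1 of the 44, in SLC1A4, and repeating the quantile normalization gave 1 higher and 6 lower where the deposited scale gave 1 higher and 3 lower. Over all tested probe sets the deposited scale gave 1976 higher and 1415 lower, repeated quantile normalization 2240 and 2122, and scaling to a common median only 1483 and 668.

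**Figure D2:**
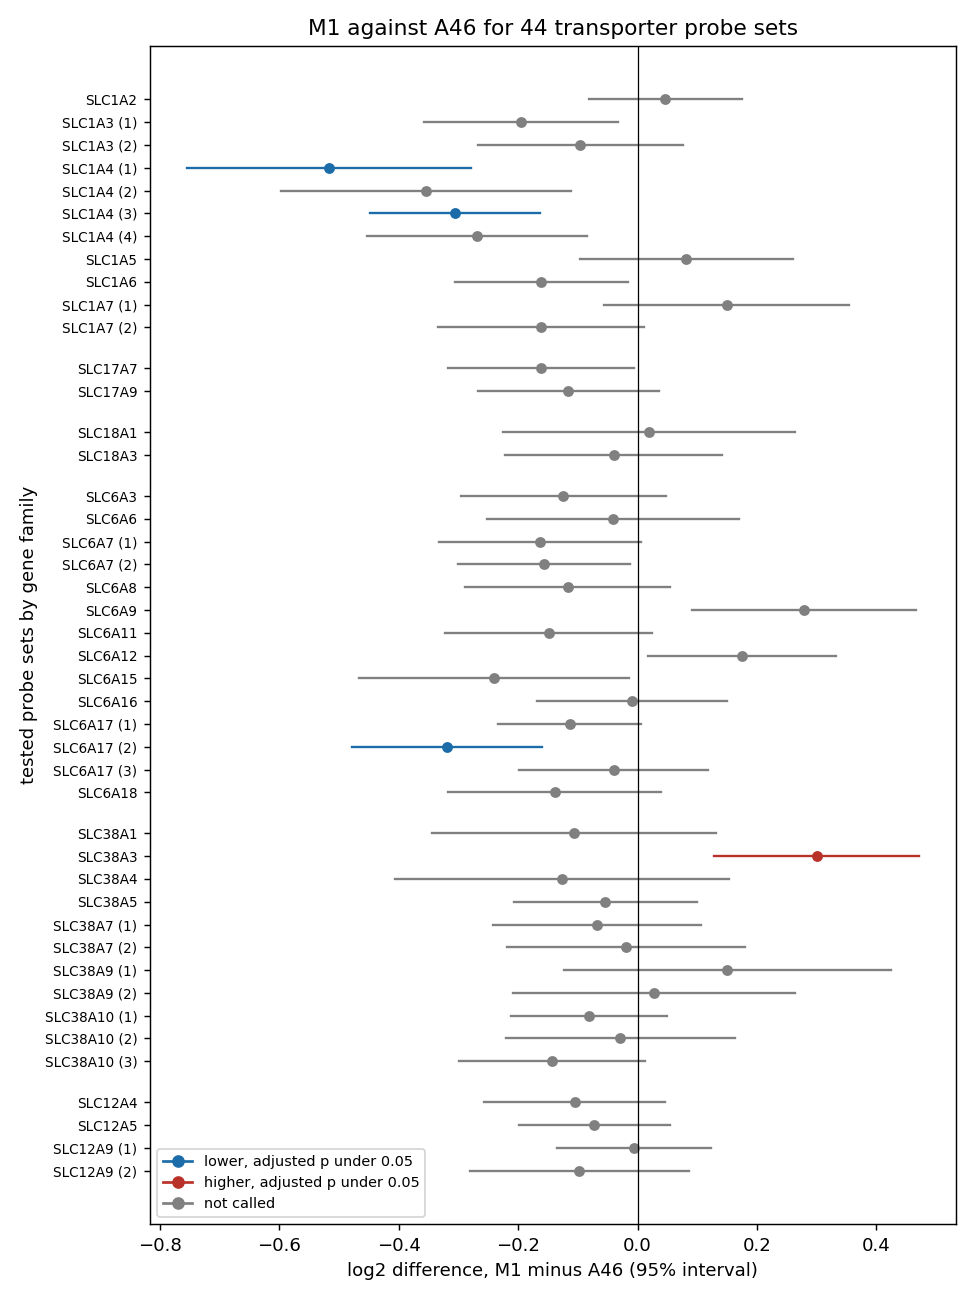
Log2 difference, M1 minus A46 (horizontal axis), for the 44 tested probe sets grouped by family (vertical axis; numbers in parentheses tell apart probe sets of 1 gene); points are estimates, lines are 95% intervals, and colour marks the calls. Most points lie left of 0, and the 4 called ones belong to SLC1A4, SLC6A17 and SLC38A3.

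The astrocytic glutamate transporters did not differ detectably between areas. SLC1A2, the transporter EAAT2 that clears most synaptic glutamate, read 9165 to 10291 in A46 (median 9541) and 8959 to 10888 in M1 (median 9818), and PMd read 8824 to 10391. PMv held both the lowest array, 7334, and one of 10501. The area ranges overlapped throughout, and M1 minus A46 was 0.05 (interval -0.08 to 0.18, adjusted p = 0.693). SLC1A3, the related EAAT1, was read by a pair of probe sets, of which the brighter gave 3497 to 4045 in A46 and 3163 to 3849 in M1. Its differences were -0.10 (interval -0.27 to 0.08, adjusted p = 0.506) and, for the dimmer probe set, -0.20 (interval -0.36 to -0.03, adjusted p = 0.115). In both probe sets of SLC1A3 animals 1 and 2 were below 0 and animal 3 above it. Without animal 3 the brighter probe set was at -0.17 (adjusted p = 0.0223). Leaving out the animal of opposite sign enlarges a difference by construction, and without animal 3 more of all tested probe sets were called. That fit therefore adds no support for a difference. Of 9 astrocyte markers tested, 2 were higher in M1 and 0 lower, against 7.49% and 5.36% of all tested probe sets. The summed intensity of the 9 was 9258 to 10350 in A46 and 11050 to 13440 in M1.

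Among the remaining SLC1A members, SLC1A6 (EAAT4, best known from cerebellar Purkinje cells) read 211.2 to 222.7 in A46 and 185.9 to 199.7 in M1. Those ranges did not overlap, yet the difference of -0.16 (interval -0.31 to -0.02) had an adjusted p of 0.145. It was nearly the same in the 3 animals, at -0.16, -0.17 and -0.15. SLC1A5, the glutamine exchanger ASCT2, was at 0.08 (interval -0.10 to 0.26). The probe sets of SLC1A7, a transporter known from retina, disagreed in sign, at 0.15 and -0.16, and neither was called.

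Among the vesicular loaders, SLC17A7 encodes VGLUT1, the glutamate loader of most cortical excitatory terminals. It read 2139 to 2547 in A46 (median 2210), 1697 to 2446 in PMv, 1892 to 2468 in PMd and 1817 to 2389 in M1 (median 1947). M1 arrays extended lower but overlapped those of A46, and the difference of -0.16 (SE 0.07, interval -0.32 to -0.01) was not called (adjusted p = 0.174). Animals 1 and 2 gave -0.22 and -0.31 and animal 3 gave 0.04. Without animal 3 the difference was -0.27 (adjusted p = 0.00776). Leaving out the animal of opposite sign enlarges it by construction, so that fit adds no support for a difference. SLC17A9, the vesicular nucleotide transporter, read 63.72 to 72.93 in A46 and 57.34 to 66.37 in M1 with its brighter probe set. SLC17A8, which encodes VGLUT3, lay below the intensity filter, at 9.24 to 11.93 over the 24 arrays.

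The SLC18A family loads monoamines and acetylcholine. SLC18A2, encoding VMAT2, was below the filter with both probe sets, and the brighter read 26.39 to 49.49. SLC18A1 (VMAT1) and SLC18A3 (the vesicular acetylcholine transporter) were tested and stood at 0.02 (interval -0.23 to 0.26) and -0.04 (interval -0.22 to 0.14).

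**Figure D3:**
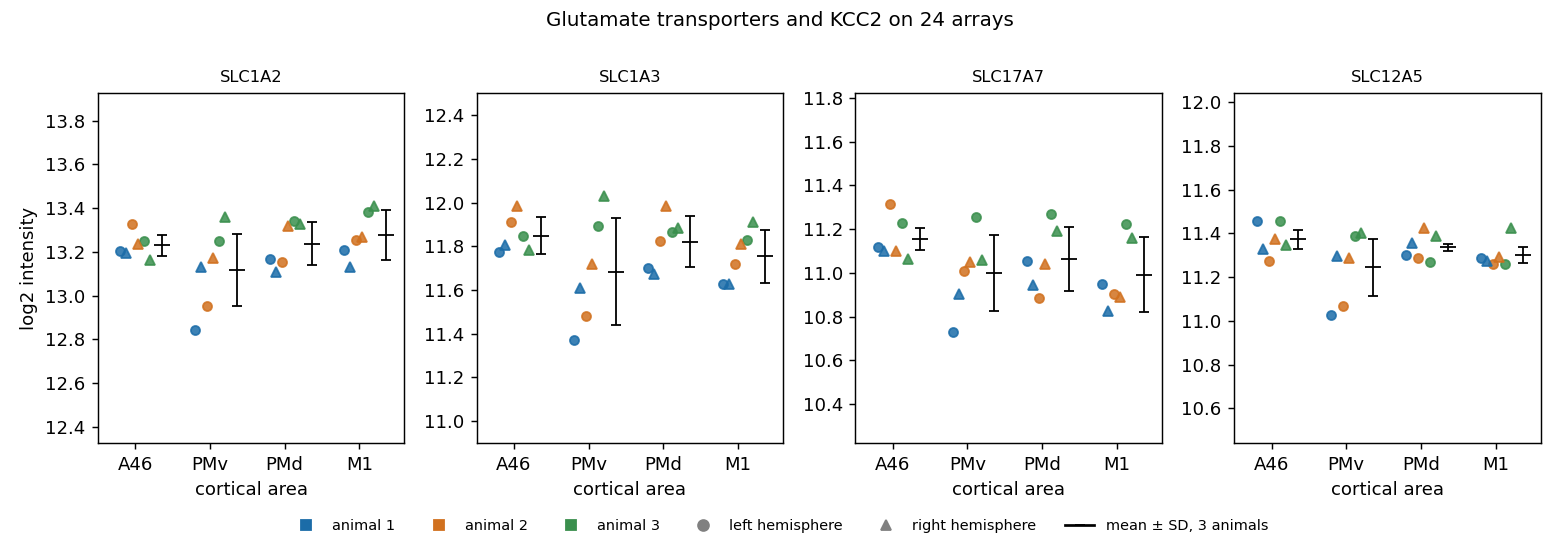
Log2 intensity (vertical axis) of SLC1A2, SLC1A3, SLC17A7 and SLC12A5 on the 24 arrays by cortical area (horizontal axis), with the brightest probe set of each gene; colours mark animals, circles and triangles mark left and right hemispheres, and black bars show mean ± SD over 3 animals. The areas overlap in all 4 panels, and none of these M1 minus A46 differences was called.

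In the SLC6A family, SLC6A17 was lower in M1 by 1 of its 3 probe sets. The gene encodes NTT4, a transporter of neutral amino acids on synaptic vesicles. The called probe set (MmugDNA.995.1.S1_at) read 203.9 to 285.9 in A46 (median 227.8), 173.4 to 228 in PMv (median 198.5), 162.9 to 265.9 in PMd (median 183.85) and 159.3 to 235.8 in M1 (median 184.95). In M1 animal 3 read 196.5 and 235.8 and animals 1 and 2 read 159.3 to 187, and the upper array of animal 3 lay inside the A46 range. Within animals the M1 minus A46 difference was -0.35, -0.37 and -0.23, and over them -0.32 (SE 0.07, adjusted p = 0.0125). The brightest probe set of SLC6A17 stood at -0.11 (interval -0.23 to 0.01, adjusted p = 0.221) and the dimmest at -0.04 (interval -0.20 to 0.12, adjusted p = 0.797), so the 3 did not give the same size. For the called one the adjusted p was 0.0979 without animal 1, 0.298 without animal 2 and 0.294 without the animal term, and from right hemispheres alone its difference was -0.13 (adjusted p = 0.509).

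SLC6A9, the glycine transporter GlyT1 found mainly on glia, was the member nearest to a call in the opposite direction. It read 77.78 to 88.41 in A46 (median 81.49) and 79.3 to 132.9 in M1 (median 101.65). PMv arrays read 71.62 to 85.03 and PMd arrays 77.61 to 97.38. M1 was high in animals 2 and 3, at 100.4 to 132.9, and not in animal 1, at 79.3 and 86.83. The difference was 0.28 (SE 0.09, interval 0.09 to 0.47, adjusted p = 0.0526), and M1 minus premotor was of the same size, 0.28 (adjusted p = 0.0897). Without animal 1 M1 minus A46 was 0.38 (adjusted p = 0.0464), and without animal 2 it was 0.20 (adjusted p = 0.574). Leaving out animal 1, which had the smallest difference, enlarges the estimate by construction, so that fit adds no support for a difference.

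SLC6A15, a neuronal transporter of branched-chain amino acids and proline, read 146.2 to 276 in A46 and 127.7 to 202.7 in M1. Its difference of -0.24 (interval -0.47 to -0.01, adjusted p = 0.167) came from -0.43 and -0.34 in animals 1 and 2 and 0.06 in animal 3. Without animal 3 it was -0.39 (adjusted p = 0.00598), a fit that leaves out the animal of opposite sign and adds no support for a difference. The proline transporter of glutamatergic terminals, SLC6A7, was at -0.16 with both probe sets (adjusted p = 0.154 and 0.209), below 0 in 3 of 3 animals each time. The tested transporters that carry GABA gave no call. SLC6A11 (GAT3, an astrocytic GABA transporter) read 52.23 to 67.83 in A46 and 47.23 to 62.44 in M1, at -0.15 (interval -0.32 to 0.02, adjusted p = 0.275). SLC6A12, which carries betaine and GABA, stood at 0.17 (interval 0.02 to 0.33, adjusted p = 0.147). The creatine transporter SLC6A8 was at -0.12 (interval -0.29 to 0.05), and the taurine transporter SLC6A6 at -0.04 (interval -0.25 to 0.17).

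The plasma-membrane monoamine transporters of this family include SLC6A2 and SLC6A3. SLC6A2, the noradrenaline transporter, read 12.21 to 20.87 on the 24 arrays, below the filter. SLC6A3, the dopamine transporter, had 1 probe set below the filter, at 21.8 to 32, and 1 above it, at 121.4 to 175.3, whose M1 minus A46 difference was -0.12 (interval -0.30 to 0.05). Because a probe set's brightness depends on its own sequence, the dim and the bright reading of SLC6A3 cannot be ranked.

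SLC38A3, encoding SNAT3, the transporter through which astrocytes release glutamine, was the member called higher in M1. It read 257.4 to 284 in A46 (median 276.6), 264.2 to 342.3 in PMv (median 310.15), 281.7 to 367.8 in PMd (median 325.35) and 307.2 to 380.7 in M1 (median 334.05). Every M1 array was above every A46 array, and both premotor areas spanned the gap between them. The log2 difference, M1 minus A46, was 0.30 (SE 0.08, interval 0.13 to 0.47, adjusted p = 0.0256), with 0.46, 0.28 and 0.15 in animals 1, 2 and 3. Premotor minus A46 was 0.20 (SE 0.07, adjusted p = 0.131). Of the 9 astrocyte markers, ALDOC and S100B were higher in M1, at 0.28 (adjusted p = 0.00523) and 0.69 (adjusted p = 0.00518). The others were not called. FGFR3, SOX9, GJB6 and GFAP stood at 0.25, 0.17, 0.15 and 0.07, and ALDH1L1, AGT and SLC4A4 at -0.18, -0.16 and -0.03. The median of the 9 was 0.15. The part of astrocyte content in the SLC38A3 difference was not tested. The call was lost without animal 1 (adjusted p = 0.206), without animal 2 (0.325) and without the animal term (0.12). Repeating the quantile normalization gave an adjusted p of 0.0698, and left hemispheres alone gave 0.133.

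SLC38A1, the glutamine transporter SNAT1 of neurons, read 77.14 to 112 in A46 and 74.41 to 87.66 in M1. Its difference of -0.11 (interval -0.34 to 0.13, adjusted p = 0.612) rested on animal 1, at -0.36, against -0.03 and 0.08 in the others, and it was 0.02 without animal 1. SLC38A10, read by 3 tested probe sets, stood at -0.03 to -0.14. The lysosomal members, SLC38A7 and the amino acid sensor SLC38A9, gave -0.07 and -0.02, and 0.15 and 0.03, and none was called. SLC38A5, the related glutamine transporter SNAT5, was at -0.05 (interval -0.21 to 0.10).

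**Figure D4:**
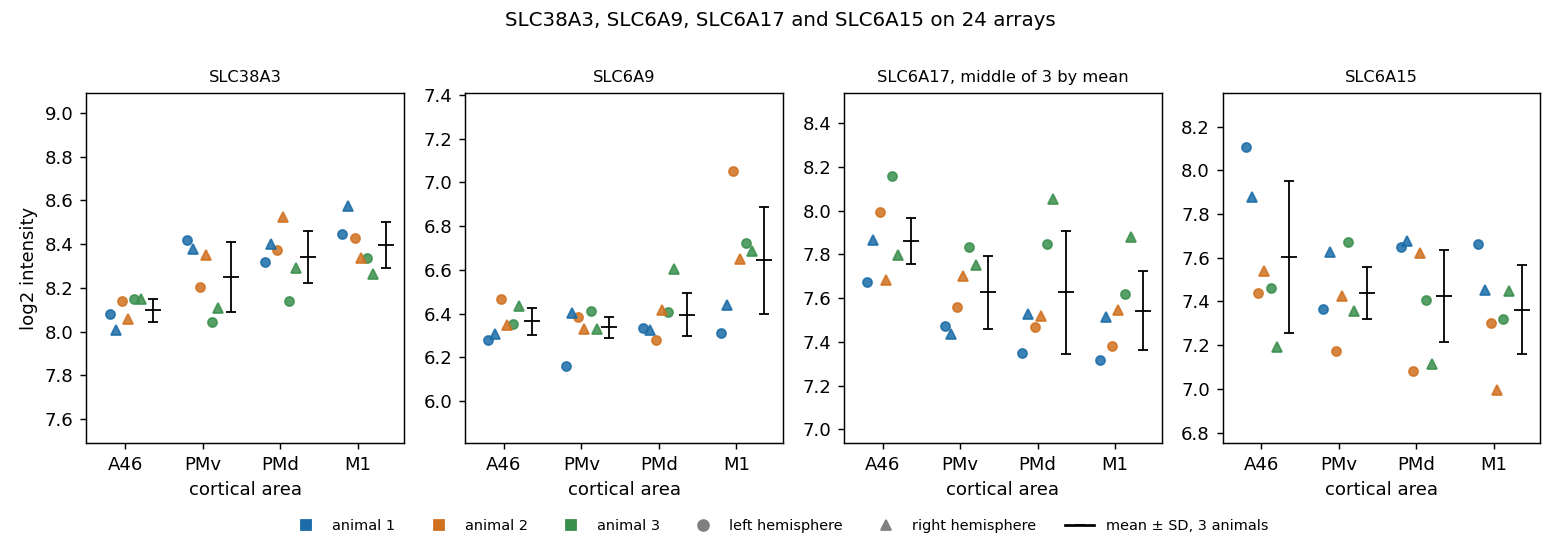
Log2 intensity (vertical axis) of SLC38A3, SLC6A9, SLC6A17 (the probe set of middle brightness) and SLC6A15 on the 24 arrays by cortical area (horizontal axis); colours mark animals, circles and triangles mark left and right hemispheres, and black bars show mean ± SD over 3 animals. SLC38A3 has all M1 points above all A46 points, whereas M1 and A46 overlap in the other 3 panels.

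Chloride cotransporters did not differ detectably. SLC12A5, which encodes KCC2, the chloride extruder of mature neurons, read 2477 to 2813 in A46 (median 2628), 2083 to 2704 in PMv, 2466 to 2745 in PMd and 2452 to 2749 in M1 (median 2488). All 4 ranges overlapped, and M1 minus A46 was -0.07 (interval -0.20 to 0.05, adjusted p = 0.494). SLC12A4 (KCC1, a widely expressed potassium-chloride cotransporter) was at -0.11 (interval -0.26 to 0.05). SLC12A9 gave -0.01 and -0.10 with its pair of probe sets.

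The 25 probe sets below the filter include 14 genes that have no brighter one. These were SLC12A1, SLC12A3 and SLC12A8 in the cotransporter family, SLC17A1, SLC17A3, SLC17A4 and SLC17A8, SLC18A2, SLC38A6 and SLC38A11, and SLC6A2, SLC6A5, SLC6A14 and SLC6A20. SLC12A1 and SLC12A3 are the salt cotransporters of the kidney, and SLC6A5 is the glycine transporter of spinal and brainstem inhibitory neurons. The dim members nearest to the filter, whose threshold is a mean log2 intensity of 5.62, were SLC17A9 at 5.39, SLC38A11 at 5.38 and SLC38A10 at 5.30. Just above it lay SLC1A7 at 5.65, SLC6A16 at 5.67 and SLC6A11 at 5.79.

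Other contrasts between areas gave few calls. Any difference between the 4 areas was called for 1 of 44 probe sets, against 6.53% of all tested, and this was the widest-spread probe set of SLC1A4 (adjusted p = 0.0434). Leaving out animal 3 raised that count to 13, when 29.4% of all tested were called, and leaving out animal 1 or animal 2 brought it to 0, when 2.31% and 0.489% were. Premotor minus A46 gave 0 calls in limma, against 3.35% of all tested called, with 9 (20.5%) at an unadjusted p under 0.05, against 20% of all. Without animal 3 the count was 15, when 21.7% of all tested were called, and without animal 1 or 2 it was 0, when 0.527% and 0.0606% were. The differences ran from -0.36 for SLC1A4 to 0.20 for SLC38A3. M1 minus premotor gave 0 calls, against 2.16% of all called, with 3 (6.82%) at an unadjusted p under 0.05, against 12.3% of all, and ranged from -0.18 for SLC6A7 to 0.28 for SLC6A9. PMd minus PMv gave 0 calls, against 0.00758% of all called, with 0 at an unadjusted p under 0.05, against 5.4% of all, and SLC6A8 had the highest value at 0.17 (interval -0.0015 to 0.34). Without the 2 left PMv arrays that stand apart, the counts were 2 for any difference, 1 for premotor minus A46 and 5 for M1 minus A46. Both former counts held SLC1A4 alone, and the probe set added in M1 minus A46 was SLC1A4 (MmugDNA.22198.1.S1_s_at), whose adjusted p became 0.0184 at an unaltered difference.

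Differences between the 3 animals were of the same order as those between areas. The range of the 3 animal means was larger than the range of the 4 area means for 14 of 44 probe sets (31.8%, against 46.1% of all tested). The area range covers more means, each of fewer values, so spread alone tends to make it the larger. The median area range was 0.162 and the median animal range 0.113, against 0.155 and 0.145 over all tested. SLC6A8 had an animal range of 0.41, with mean log2 intensities of 7.97, 8.14 and 8.38 in animals 1, 2 and 3. For 1 probe set of SLC38A9 the range was also 0.41, the widest of the 44 with a margin in the fourth decimal, and in the opposite order, at 6.44, 6.16 and 6.03. The dimmer probe set of SLC1A3 ranged over 0.40, and SLC6A15, SLC6A17 and SLC6A7 over 0.36, 0.35 and 0.32. Sex and individual cannot be told apart, since animal 3 was the only female.

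The animals also differed in the M1 minus A46 direction. In animal 1 the difference was below 0 for 31 of 44 transporters (70.5%), in animal 2 for 36 (81.8%) and in animal 3 for 25 (56.8%), where 53.5%, 51.3% and 50.5% of all tested probe sets were below 0. The median over members was -0.09, -0.15 and -0.03 in that order. All 3 animals were below 0 for 20 of 44 (45.5%, against 25% of all tested). Counts of calls also depended on the animals included. With animals 1 and 2 only, the males, M1 minus A46 was called for 10 of 44, when 20.5% of all tested probe sets were called. It was called for 1 without animal 1, when 6.25% were, and for 0 without animal 2, when 1.53% were. The counts thus shifted over all tested probe sets as well.

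**Figure D5:**
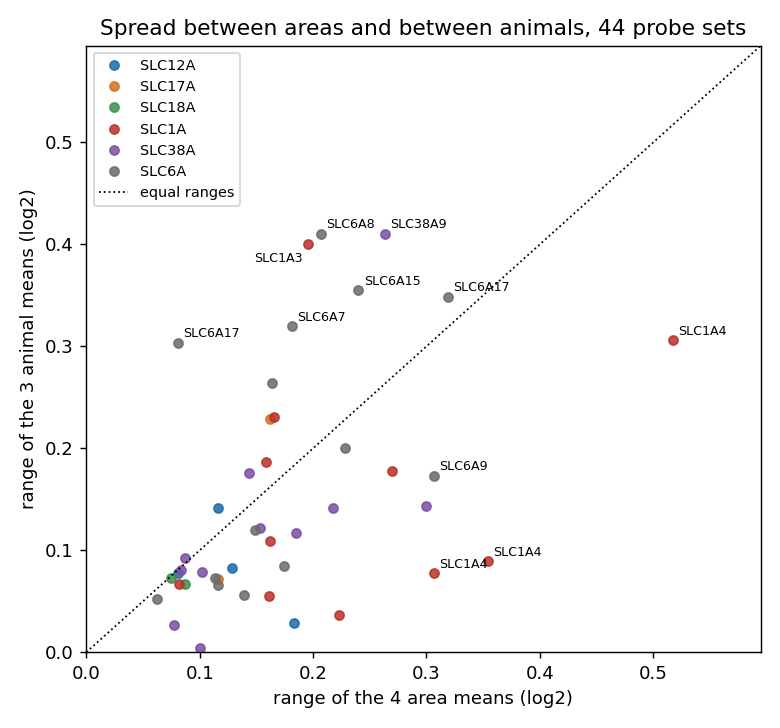
Range of the 3 animal means (vertical axis, log2) against the range of the 4 area means (horizontal axis, log2) for the 44 tested probe sets, coloured by family; the dotted line marks equal ranges. There are 14 points above the line, and an SLC1A4 probe set lies farthest to the right at 0.52. Spread alone tends to place points below the line, since the area range covers more means, each of fewer values.

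The hemispheres did not differ detectably for these transporters. Left minus right, averaged over areas within each animal, was called by limma for 0 of 44 probe sets, against 0.144% of all tested called, with 2 at an unadjusted p under 0.05, against 2009 of 26383. Values ran from -0.13 for 1 probe set of SLC38A9 (adjusted p = 0.492) to 0.20 for SLC38A4 (adjusted p = 0.209), a transporter of neutral and cationic amino acids known from liver. The other tested probe set of SLC38A9 stood at 0.01 (adjusted p = 0.994). SLC38A4 was above 0 in 3 of 3 animals, at 0.07, 0.19 and 0.34. Its A46 arrays spread from 53.6 to 91.4. A test of whether left minus right depends on the area called 0 of 44 and 0% of all tested, with 3 at an unadjusted p under 0.05, against 1228 of 26383. The median absolute left-right difference was 0.10 per transporter and 0.11 over all tested probe sets, so the tissue pieces of 1 area and animal differed by about as much for transporters as for other transcripts.

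Genes around these transporters were read from lists of enzymes, pumps and regulators, in M1 minus A46. Over all tested probe sets, 12.9% were called in this contrast (7.49% higher and 5.36% lower). The lists are short, with 1 probe set per gene, and no count was tested against that share. Of 13 tested genes of glutamate and GABA metabolism, 2 were higher and 0 lower. GAD2, a GABA-synthesising enzyme, was higher by 0.78 (SE 0.13, adjusted p = 0.00133), while GAD1, its partner enzyme, stood at -0.17 (adjusted p = 0.158). PHGDH, which starts serine synthesis, was higher by 0.26 (adjusted p = 0.0266). GLS2, a glutaminase, and ASNS, which makes asparagine, were at 0.20 and 0.16 and were not called. The glutamine synthetase gene GLUL was at 0.02 (adjusted p = 0.919). The median of this list was 0.02, against -0.01 for all tested.

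The sodium gradient that drives uptake comes from the sodium pump, and of 4 tested pump genes FXYD1 was higher by 0.35 (adjusted p = 0.0306) and FXYD6 lower, at -0.40 (adjusted p = 0.000685). Both encode small regulators of the pump. FXYD1 was above 0 in 2 of 3 animals. Of 7 genes of the vesicular proton pump, which powers vesicle loading, ATP6V0E1 was higher by 0.36 (adjusted p = 0.00301) and ATP6AP1 lower, at -0.19 (adjusted p = 0.041).

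Among 14 regulators of chloride transport 2 were higher and 1 lower, while the chloride cotransporters themselves gave 0 calls. STK39, the kinase SPAK that phosphorylates SLC12A cotransporters, was higher by 0.51 (SE 0.06, adjusted p = 0.000189) and was also called in premotor minus A46 at 0.25 (adjusted p = 0.0268). WNK4, a kinase upstream of it, was higher by 0.33 (adjusted p = 0.0261), and SLC4A3, a chloride-bicarbonate exchanger, was lower, at -0.22 (adjusted p = 0.0426). SLC7A2, a carrier of cationic amino acids, was the 1 called of 10 other amino acid transporters, higher by 0.25 (adjusted p = 0.0195). Of 3 tested genes of monoamine and acetylcholine metabolism 1 was called, SLC29A4, a low-affinity monoamine transporter, at -0.41 (SE 0.07, adjusted p = 0.00267).

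Markers of other cell types gave the setting for these values in M1 minus A46. Their counts stand beside the same 12.9% of all tested probe sets called and were not tested against it. Of 4 tested precursor markers of oligodendrocytes 3 were higher, with summed intensities of 534.9 to 585.9 in A46 and 710.4 to 796.5 in M1. Interneuron markers split, with 3 higher and 2 lower of 7, and sums of 4027 to 4278 and 4444 to 4813. Of 8 microglial markers 2 were higher (sums 1295 to 1366 and 1368 to 1670), and of 6 endothelial and pericyte markers 1 was higher (1141 to 1178 and 1213 to 1264). Meningeal and choroid plexus markers gave 1 higher of 6, with sums of 832.6 to 1174 and 857.4 to 939. Subcortical neuron markers gave 1 lower of 5 (976.7 to 1059 and 926.5 to 961.4), and blood markers gave 0 of 2 (295.3 to 319.3 and 294.9 to 303.2). No marker was at 0, since all values in the table exceed an intensity of 1. Their part in the transporter values was not tested.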

How the data were processed

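Biotin-labelled total RNA of 24 cortical pieces was read on 24 Affymetrix rhesus arrays of 1 colour, per the labels' protocols. The authors deposited intensity values per probe set, made with RMA, per the submitters' processing notes. Their scale was taken as linear from the range of the values. Which RMA version was used, and on which arrays together, is not given in the sources used here. RMA brings arrays close to a common distribution, so a shift of all transcripts at once cannot be seen. The deposited values still differed somewhat between arrays, with medians of 47.88 to 51.62 and SDs of the log2 values of 1.789 to 1.949. Arrays have no read depth, and their number limits the precision.

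Groups were read from the titles. Intensities were converted to log2, 99 control probe sets were removed, and probe sets with a mean below the median (log2 5.62, intensity 49.3) were left out, which kept 26383. Of 52766 probe sets without controls, 24956 had 1 gene symbol, 361 several and 27449 none. One probe set with several symbols, among them a member symbol, was left out. The Entrez IDs of all 69 member probe sets led to a current gene of the same symbol. Coordinates are left out because the build is not given. For a gene with several probe sets, all are counted, and the brightest stands for genes of the other lists.

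The animal was the replicate. The 2 hemispheres were averaged, giving 12 means, and limma 3.58.1 (R 4.3.3; lmFit and eBayes with an intensity trend) was fitted to all tested probe sets with area and animal as terms, with 6 residual and 6.98 prior degrees of freedom. Left minus right was tested on 3 per-animal means. Tests were two-sided, and Benjamini-Hochberg adjustment covered all 26383 within a comparison. The procedure was tested on simulated data. The number that ends each title was read as the animal, because the series had 3 animals and sex and age are the same for all samples of a number. It was kept as a block, since every area then came from the same 3 animals. After removal of area means, the 18 pairs of means from 1 animal correlated at 0.207 to 0.85, and the 36 across animals at -0.561 to 0.065. Removing area means pulls the latter below 0 where the former are above it, so the latter add no separate support.

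Named with values were member genes called in any area contrast, genes fixed by name for their role, and up to 4 genes per list of other pathway genes with the smallest p. Further members, and GAD1 and GLUL, were added after their values were seen, to complete families. The members and lists were chosen with earlier results of these data known. Alternatives changed the filter, offset, normalization, animal term, use of hemispheres, trend and the animals included. Leaving out 2 PMv arrays and the array spread as a covariate were added after seeing the data.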

Additional observations from a re-analysis of the deposited data

Results flagged for a closer look

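For 17 transporter probe sets, each of 4 areas was checked for a single array far from the other 5, which made 68 groups. In 2 of them 1 array stood apart from the rest of its area, and chance alone gives about 1 in 20 groups. SLC6A9 in PMv had its lowest array at 71.62, from the left hemisphere of animal 1, whereas the next was at 80.31 and the highest at 85.03. That array is also the one whose correlation with the other arrays was lowest. SLC12A5 in M1 had its highest array at 2749, from the right hemisphere of animal 3, whereas the next was at 2510 and the lowest at 2452.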

How the results depend on the processing

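Counts of called transporters moved with the processing. Calls over all tested probe sets moved too, as given above for repeated quantile normalization, a common median and fits without 1 animal. Their shares in the other settings are not given here, so the counts below are no result about transporters alone. Any difference between areas, 1 of 44 in the fit reported, gave 3 with a stricter filter, 3 with a repeated quantile normalization, 0 with a common median only, 0 with no replicate block for the animal, 5 on 24 arrays with a random block, 2 from right hemispheres alone, 0 without the intensity trend, and 0 to 13 when 1 animal was left out. M1 minus A46, 4 as reported, gave 7 with quantile normalization, 1 with no replicate block, 9 on 24 arrays, 1 from left hemispheres alone and 0 to 10 without 1 animal. Premotor minus A46, 0 as reported, gave 2 with a stricter filter, 1 with quantile normalization, 2 on 24 arrays and 0 to 15 without 1 animal. M1 minus premotor, 0 as reported, gave 1 with quantile normalization and 2 on 24 arrays, and PMd minus PMv gave 0 to 2 without 1 animal. Of the settings added after seeing the data, omitting 2 PMv arrays gave 2 for any difference and 1 for premotor minus A46, and array spread as a covariate gave 5 for any difference, 10 for M1 minus A46, 2 for premotor minus A46 and 1 for M1 minus premotor. Hemisphere tests gave 0 throughout. In M1 minus A46, leaving out 1 animal turned the sign of 11 of the 44, 0 of them called, at reported differences of at most 0.127. Of 17 probe sets followed through every alternative, 3 turned, all uncalled: the dimmest of SLC6A17, 0.13 from right hemispheres alone; SLC38A1, -0.198 to 0.0225 without 1 animal; and SLC1A2, -0.0252 to 0.0845 without 1 animal. The causes were not tested. The adjusted p of the called probe sets ranged over the alternatives from 4.95e-05 to 0.245 and from 0.000266 to 0.269 for SLC1A4, from 0.00194 to 0.325 for SLC38A3 and from 0.00418 to 0.509 for SLC6A17. Fits without 1 animal rest on 2 animals per area.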
